A study of Mus musculus with 2 samples.

Results

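The genes described here encode the protein components of the mitochondrial ribosome. They were chosen by symbol alone, as every row of the deposited count table named Mrpl or Mrps followed by a number and, for some, letters, with at least 20 reads summed over both libraries. All 77 rows with such a symbol met that minimum, out of 14213 genes that met it among 24061 rows in the table. The member nearest the minimum was Mrpl23 with 42 reads, and the member with the most reads was Mrpl15 with 2984.

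The study compared mouse embryonic stem cells labelled as overexpressing Pc4 with control cells by poly(A) RNA sequencing. Pc4, or positive cofactor 4, is a DNA-binding transcriptional coactivator encoded by Sub1. The Pc4-OE library came from C57BL/6 embryonic stem cells at passages 24 to 37, and the control library from C57BL/6 embryonic stem cells at passages 17 to 23. Feeder cells from mouse embryos (embryonic fibroblasts) supported both cultures, in medium with a serum replacement at 20% and leukaemia inhibitory factor at 1000 U/ml, and the labels do not say whether feeder cells were removed before lysis. The overexpressing lines were made with a lentivirus that carries the Venus fluorescent marker. The design text names 3 such lines, picked as fluorescent colonies, and the labels do not say which of them the library holds. Nothing in the labels says that the control cells received a virus, so passage, virus and label cannot be told apart. There was 1 library per label, so a difference between the libraries has no replicate check and no p-value is given.

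The Pc4-OE library held 10194783 reads and the control library 10571463. Sub1 itself had 235 counts per 1000000 reads (CPM) in the library labelled Pc4-OE (2432 reads) and 530 CPM in the library labelled control (5522 reads), a log2 ratio of -1.17 (interval -1.24 to -1.11). The gene named as overexpressed was therefore lower in the library labelled as overexpressing it, and every direction below is that of the labels. CPM values here carry TMM scaling, which sets aside genes with extreme ratios. Each ratio is Pc4-OE over control, and its 95% interval is an exact binomial interval that covers counting error only. All 10 embryonic stem cell markers were present, with a summed level of 5118 CPM in the Pc4-OE library and 6115 CPM in the control library and a median log2 ratio of 0.01. They differed in both directions. Of the 10 intervals, 4 lay wholly below a ratio of 1, against 33.1% of all measured genes, and 4 wholly above it, against 31.2%. Pou5f1 (log2 ratio -0.93), Tdgf1 (-0.69), Utf1 (-0.49) and Zfp42 (-0.25) were lower, and Fgf4 (0.54), Nanog (0.24), Klf4 (0.22) and Dppa5a (0.07) were higher. All 16 fibroblast markers and all 16 macrophage markers had a ratio above 1 and none was at 0 in either library. The fibroblast markers summed to 11004 CPM in the Pc4-OE library and 4209 CPM in the control library, and the macrophage markers to 665 CPM and 234 CPM in the same order of libraries.

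The mitochondrial ribosome translates the few messenger RNAs of the mitochondrial genome, which encode core subunits of the respiratory chain and ATP synthase. All of its proteins are encoded in the nucleus, made in the cytosol and imported. It descends from a bacterial ribosome. Many of its proteins have bacterial counterparts, and the others were gained in the mitochondrial lineage as its ribosomal RNA shrank. Embryonic stem cells are known for a compact mitochondrial network and a strong reliance on glycolysis.

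The start-site regions of the members that anchor the comparison are shown first, from RefSeq on GRCm38.p6, each running from 250 bases before to 50 bases after the listed start, 5′ to 3′ on the strand of the gene. Capitals mark matches to 3 short motifs on either strand. The motifs are GCATGCG, the core of the site of nuclear respiratory factor 1 (NRF1), CCGGAAG, the core of the site of ETS-family factors, and AAGATGG, the core of the YY1 site. These are factors known to bind promoters of mitochondrial protein genes. Mrpl20 had the lowest ratio of all members and lies at chr4:155802628-155802927 on the plus strand. Mrpl18, at chr17:12916042-12916341 on the minus strand, had the lowest ratio among members with a motif match. Mrpl46, at chr7:78783040-78783339 on the minus strand, and Mrps11, at chr7:78782881-78783180 on the plus strand, are 2 members that point away from each other with start sites 42 bases apart. Mrpl52, at chr14:54426659-54426958 on the plus strand, holds 3 motif matches and had nearly the same level in both libraries.
Mrpl20: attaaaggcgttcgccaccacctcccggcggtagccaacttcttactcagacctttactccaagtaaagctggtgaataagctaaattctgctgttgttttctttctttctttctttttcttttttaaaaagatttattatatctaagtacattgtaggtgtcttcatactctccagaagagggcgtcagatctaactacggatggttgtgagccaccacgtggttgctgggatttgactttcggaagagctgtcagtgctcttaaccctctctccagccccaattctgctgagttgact
Mrpl18: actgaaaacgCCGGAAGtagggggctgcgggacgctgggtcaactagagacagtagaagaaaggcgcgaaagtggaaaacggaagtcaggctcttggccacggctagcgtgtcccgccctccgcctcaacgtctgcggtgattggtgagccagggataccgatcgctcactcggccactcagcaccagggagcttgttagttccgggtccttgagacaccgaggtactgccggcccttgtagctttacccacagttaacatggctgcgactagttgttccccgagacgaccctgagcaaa
Mrpl46: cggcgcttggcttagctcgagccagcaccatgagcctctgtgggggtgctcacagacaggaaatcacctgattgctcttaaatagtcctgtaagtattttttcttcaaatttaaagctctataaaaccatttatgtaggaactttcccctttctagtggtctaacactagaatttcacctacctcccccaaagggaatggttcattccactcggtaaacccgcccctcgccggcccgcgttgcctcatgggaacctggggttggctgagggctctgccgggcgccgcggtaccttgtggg
Mrps11: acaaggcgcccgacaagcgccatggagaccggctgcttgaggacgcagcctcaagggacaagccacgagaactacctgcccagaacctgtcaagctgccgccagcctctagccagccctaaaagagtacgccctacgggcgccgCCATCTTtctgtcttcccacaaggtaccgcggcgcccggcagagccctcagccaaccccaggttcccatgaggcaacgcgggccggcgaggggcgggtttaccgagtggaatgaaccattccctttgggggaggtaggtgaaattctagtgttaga
Mrpl52: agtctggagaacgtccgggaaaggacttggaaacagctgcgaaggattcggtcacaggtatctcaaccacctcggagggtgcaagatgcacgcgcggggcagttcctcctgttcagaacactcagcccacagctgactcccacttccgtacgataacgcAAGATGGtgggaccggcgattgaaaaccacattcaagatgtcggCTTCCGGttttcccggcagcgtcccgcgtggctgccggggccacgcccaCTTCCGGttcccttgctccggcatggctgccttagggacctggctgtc

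The region of Mrpl20 holds none of the 3 motifs, that of Mrpl18 a single ETS core, and that of Mrpl52 a YY1 core and an ETS core at 2 places. Of the 77 members, 68 had a region in the table, and 1 region a gene was searched. The ETS core was in 24 of the 68 (35.3%), against 9.12% of the 27025 genes in the table and 17.3% of those with enough reads to be measured here. The YY1 core was in 13 (19.1%), against 6.48% of all genes and 7.03% of measured genes. The NRF1 core, whose 2 strands overlap where the site is palindromic, was in 8 (11.8%), against 3.64% and 6.40%. At least 1 of the motifs was in 36 of the 68 (52.9%), against 27.6% of measured genes. The median log2 ratio of the members differed little with the NRF1 and ETS cores and most with the YY1 core. It was -0.45 in the 36 with a match and -0.45 in the 32 without one, and -0.45 in the 8 with an NRF1 core and -0.47 in the 60 without it. It was -0.47 in the 24 with an ETS core and -0.42 in the 44 without it, and -0.35 in the 13 with a YY1 core and -0.46 in the 55 without it. These differences were not tested. A match is a description of these letters and not evidence of binding.

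Messenger RNAs for mitochondrial ribosomal proteins were lower across almost the whole set in the library labelled Pc4-OE, by a modest amount each. Of the 77 members, 72 had a ratio below 1, against 50.7% of all measured genes. The whole counting interval lay below 1 for 62 members (80.5%), against 33.1% of all measured genes, and above 1 for 0 members, against 31.2%. The median log2 ratio of the members was -0.48, which is a ratio of 0.716, with quartiles of -0.63 and -0.22. All measured genes had a median of -0.01 with quartiles of -0.38 and 0.47. Together the members held 32111 reads in the Pc4-OE library, 0.315% of its reads (exact 95% interval 0.312% to 0.318%), and 44409 reads in the control library, 0.420% (0.416% to 0.424%). Their summed level was 3103 CPM in the Pc4-OE library and 4265 CPM in the control library, a ratio of 0.727 (0.717 to 0.738).

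The size of the difference per gene was small. Only Mrpl20 was at least 2-fold lower with an interval excluding 1, 1 of 77 against 4.02% of all measured genes, and 0 members were at least 2-fold higher, against 11.8%. At a threshold of 1.5-fold, 26 members (33.8%) were lower, against 13.2% of all measured genes, and 0 were higher, against 18.8%. Counting precision depends on abundance, so the same counts were taken over genes of like abundance. Among the 5093 genes between 19.4 and 79.1 mean CPM, the 10th to 90th percentile of the members, 36.4% had an interval wholly below 1 and 11.9% were at least 1.5-fold lower, with a median log2 ratio of -0.04. Among the 8991 genes in the 10th to 90th percentile of the members' exon length (0.699 to 4.37 kb), 34.1% had an interval wholly below 1 and the median was -0.04. In bulk RNA, fewer cells of a type and less RNA per cell cannot be told apart. The summed fibroblast and macrophage markers given above were higher in the same library in which the members were lower, and their part in the difference was not tested.

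**Figure D1:**
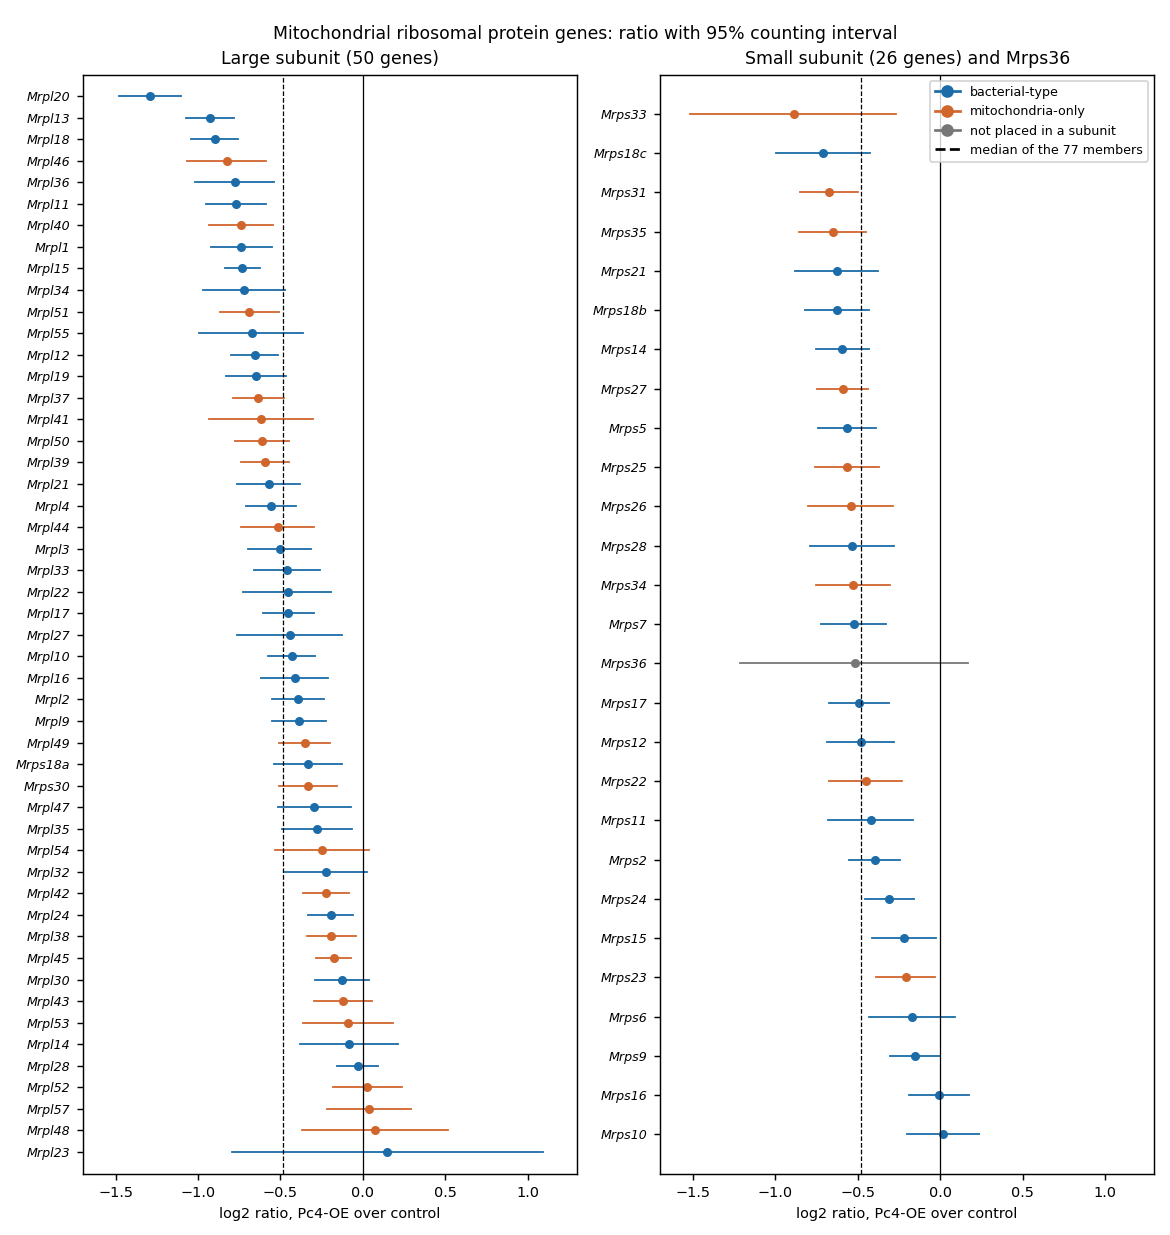
Log2 ratio of Pc4-OE over control for each of the 77 members, with the 95% counting interval as a bar, in the large subunit (left) and the small subunit with the unplaced Mrps36 (right), coloured by origin. The dashed line is the median of the members at -0.48, Mrpl20 lies lowest at -1.29, and no interval lies wholly above 0.

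The large subunit holds the peptidyl transferase centre and the exit tunnel. Of its 50 members, 46 had a ratio below 1, 39 had an interval wholly below 1 and 18 were at least 1.5-fold lower, with a median log2 ratio of -0.45. This count includes Mrps30 and Mrps18a, which carry small-subunit names but are known to sit in the large subunit. The small subunit binds the messenger RNA and reads its codons. Of its 26 members, 25 had a ratio below 1, 23 had an interval wholly below 1 and 8 were at least 1.5-fold lower, with a median of -0.53. Ratios ran from -1.29 to 0.15 in the large subunit and from -0.88 to 0.02 in the small subunit, a range that lies within that of the large subunit. Mrps36 was placed in neither subunit, since it is now known as a component of the 2-oxoglutarate dehydrogenase complex. It had 32 reads in the Pc4-OE library and 46 in the control library, and its interval included 1 (log2 ratio -0.51, interval -1.21 to 0.17).

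Mrpl20 showed the greatest difference of any member. It encodes the counterpart of bacterial L20, an early-binding protein in bacterial large-subunit assembly, and lies on chromosome 4 from 155802878 to 155808831. It had 31.7 CPM in the Pc4-OE library (328 reads) and 77.6 CPM in the control library (808 reads). That is 2.45-fold lower (interval 2.15 to 2.79). Its interval overlapped those of Mrps33 and Mrps36, which rest on few reads, and of no other member.

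Mrpl13, Mrpl18 and Mrps33 came next in order, close to each other. Mrpl13, the counterpart of bacterial L13, had 57.5 CPM in the Pc4-OE library and 109 CPM in the control library (log2 ratio -0.93, interval -1.07 to -0.78). It is the only member on chromosome 15, from 55534095 to 55557312, and shares exon sequence with Mtbp. Mrpl18, the counterpart of bacterial L18 in the central protuberance, had 58.7 CPM in the Pc4-OE library and 110 CPM in the control library (-0.90, interval -1.04 to -0.76). Its annotated exons overlap those of Tcp1, a subunit of the CCT chaperonin, which had a log2 ratio of -0.40 (-0.45 to -0.34). The intervals of Mrpl13 and Mrpl18 lay wholly below the median of the members. Mrps33, a small-subunit protein found in mitochondrial ribosomes only, stood at a like ratio on few reads, with 35 in the Pc4-OE library and 65 in the control library (-0.88, interval -1.52 to -0.27).

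Among the 3 sites of the large subunit examined, the central protuberance had the lowest median. The central protuberance faces the small subunit and the transfer RNAs, and 6 of its 7 members had an interval wholly below 1, with a median log2 ratio of -0.67. Mrpl46 had 22.1 CPM in the Pc4-OE library and 39.2 CPM in the control library (-0.82, interval -1.06 to -0.59), and Mrpl40 had 33.4 CPM and 55.8 CPM in the same order (-0.74, interval -0.94 to -0.55). The exception was Mrpl48, with 90 reads in the Pc4-OE library and 86 in the control library (0.07, interval -0.37 to 0.52). At the tunnel exit, where the nascent chain leaves towards the inner membrane, 5 of 6 members had an interval wholly below 1, but 0 were at least 1.5-fold lower and the median was -0.25. The one left was Mrpl23, the counterpart of bacterial L23, at 22 reads in the Pc4-OE library and 20 in the control library (0.15, interval -0.80 to 1.10). With 6 and 7 genes in these groups, each median turns on a few members.

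The stalk of the large subunit, which recruits elongation factors, was uneven among its 5 members. Mrpl11, the counterpart of bacterial L11 at the stalk base, had 37.4 CPM in the Pc4-OE library and 63.7 CPM in the control library (log2 ratio -0.77, interval -0.95 to -0.59). Mrpl12, the stalk protein itself, which in human cells is also known to bind the mitochondrial RNA polymerase, had 65.4 CPM in the Pc4-OE library and 103 CPM in the control library (-0.66, interval -0.80 to -0.52). Mrpl10, which anchors Mrpl12, had 66.3 CPM in the Pc4-OE library and 89.4 CPM in the control library (-0.43, interval -0.58 to -0.29). These 3 have bacterial counterparts, and each interval lay wholly below 0. The mitochondria-only stalk proteins Mrpl54 (-0.25, interval -0.53 to 0.04) and Mrpl53 (-0.09, interval -0.36 to 0.19) had intervals that included 0. The interval of Mrpl11 overlapped neither that of Mrpl53 nor that of Mrpl54. The interval of Mrpl12 did not overlap that of Mrpl53 and overlapped that of Mrpl54 by a small margin. The interval of Mrpl10 overlapped both.

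Other large-subunit members with clearly lower levels were spread over the particle. Mrpl36, the counterpart of bacterial L36, had 22.3 CPM in the Pc4-OE library and 38.2 CPM in the control library (log2 ratio -0.78, interval -1.02 to -0.54), and its exons overlap those of Ndufs6. Mrpl1, the protein of the L1 stalk through which spent transfer RNA leaves, had 37.1 CPM in the Pc4-OE library and 61.8 CPM in the control library (-0.74, interval -0.92 to -0.55). It lies on chromosome 5, where all measured genes had a median of -0.30. Mrpl15 had the most reads of all members, with 1118 in the Pc4-OE library and 1866 in the control library, and so one of the narrowest intervals (-0.73, interval -0.84 to -0.62). These 3 had intervals wholly below the median of the members.

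The Mrps18 genes are paralogues, all descended from the gene of bacterial S18, whose products occupy different places in the mitochondrial ribosome. Mrps18c had 169 reads in the Pc4-OE library and 278 in the control library (log2 ratio -0.71, interval -0.99 to -0.43). Mrps18b had 368 reads in the Pc4-OE library and 571 in the control library (-0.63, interval -0.82 to -0.43). Mrps18a, the paralogue of the large subunit, had 351 reads in the Pc4-OE library and 445 in the control library (-0.33, interval -0.54 to -0.13). The small-subunit paralogues thus lay lower than Mrps18a, but the intervals of all 3 overlap. Mrps30, the other S-named protein of the large subunit, had 47.3 CPM in the Pc4-OE library and 59.6 CPM in the control library (-0.33, interval -0.51 to -0.16).

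In the small subunit, Mrps12, the counterpart of bacterial S12 at the decoding centre, stood at the median of the set, with 33.1 CPM in the Pc4-OE library and 46.3 CPM in the control library (log2 ratio -0.48, interval -0.69 to -0.28). Mrps24, the counterpart of bacterial S3, had 62.7 CPM in the Pc4-OE library and 77.6 CPM in the control library (-0.31, interval -0.46 to -0.16). Mrps26, found in mitochondrial ribosomes only, had 20.6 CPM in the Pc4-OE library and 30.0 CPM in the control library (-0.54, interval -0.80 to -0.29). All 9 small-subunit members without a bacterial counterpart had an interval wholly below 1, with a median of -0.56. Of the 17 with a bacterial counterpart, 14 did, with a median of -0.48.

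A smaller number of members had nearly the same level in both libraries. Mrpl28, the counterpart of bacterial L28, had 98.7 CPM in the Pc4-OE library (1022 reads) and 101 CPM in the control library (1051 reads), a log2 ratio of -0.03 (interval -0.16 to 0.09). Its interval excludes the median of the members, so low read number is not the limit there. Mrps16, the counterpart of bacterial S16, had 502 reads in the Pc4-OE library and 507 in the control library (-0.01, interval -0.19 to 0.18), and Mrps10, in the head of the small subunit, had 345 and 343 reads in the same order (0.02, interval -0.20 to 0.24). The mitochondria-only large-subunit genes Mrpl52 (377 reads in the Pc4-OE library and 372 in the control library) and Mrpl57 (256 and 251 reads) had log2 ratios of 0.03 and 0.04. Mrpl43 (-0.12, interval -0.30 to 0.05) and Mrpl14 (-0.08, interval -0.38 to 0.21) also had intervals that included 0. Mrps16, Mrpl52 and Mrpl57 are the only members on chromosome 14, where all measured genes had the highest chromosome median among those that carry members, at 0.19.

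The members therefore did not all share 1 ratio. The interval of 45 members included the median of the set, that of 12 lay below it and that of 20 above it. Of the 12 below, 11 were large-subunit genes and 1, Mrps31, was a small-subunit gene. Of the 20 above, 13 were large-subunit and 7 small-subunit genes. Members with a bacterial counterpart and those without one had near medians, at a log2 ratio of -0.46 over 48 genes and -0.52 over 29 genes, Mrps36 included. In the large subunit the order was the other way, -0.33 for the 19 members found in mitochondria only and -0.46 for the 31 with a bacterial counterpart.

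Per kilobase of exon, the members spanned a wide range of levels that the libraries shared. From the 10th to the 90th percentile they spanned 7.47-fold. The highest mean levels were 119 CPM per kilobase for Mrpl42, 93.5 for Mrpl28, 84.7 for Mrpl33, 73.5 for Mrpl52 and 70.5 for Mrps24. The lowest were 1.81 CPM per kilobase for Mrpl48, 2.09 for Mrpl23, 3.13 for Mrps33, 5.36 for Mrps36 and 5.91 for Mrps26. The exon length used for Mrps26, 4.28 kb, exceeds its RefSeq span, 130563757 to 130565394. Its level per kilobase, and its place here, are therefore not secure. The lengths used for Mrps17 and Mrpl51 also exceed their RefSeq spans. The 7.47-fold span and the relations to level per kilobase and length below carry this limit. Mrpl48, Mrpl23 and Mrps36 are 3 of the 4 members with a named pseudogene in RefSeq, the other being Mrpl27, so their reads may be divided between copies or left uncounted. Exons of 25 members overlap those of another gene, among them Mrpl10, Mrpl12, Mrpl33, Mrpl43, Mrpl48, Mrpl53, Mrps18b, Mrps18c, Mrps26 and Mrps30 beside those already named. The median level per kilobase was 26.5 in the Pc4-OE library and 35.2 in the control library. Across the 77 members, log2 CPM in one library followed that in the other with Pearson's r = 0.967, as a description over genes that share both libraries. The log2 ratio had almost no relation to level per kilobase (Spearman's rho 0.057) or to exon length (-0.12) across the same genes. The most abundant members differed in ratio too, since Mrpl33 had a log2 ratio of -0.46 (interval -0.66 to -0.26) and Mrpl42 one of -0.22 (-0.36 to -0.08), while Mrpl28 and Mrpl52 had intervals that included 0.

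**Figure D2:**
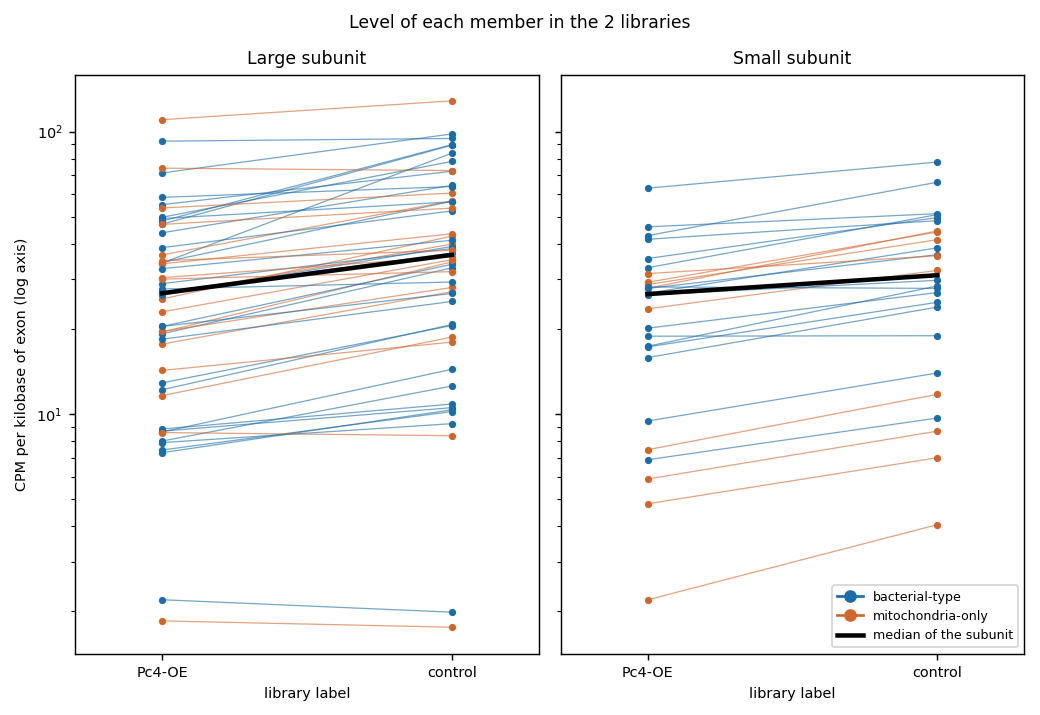
Level of each member in CPM per kilobase of exon, on a log axis, in the Pc4-OE library and the control library, for the large subunit (left) and the small subunit (right, without Mrps36), with 1 line per gene and the median of the subunit in black. The median over all members is 26.5 in the Pc4-OE library and 35.2 in the control library, and most lines slope the same way.

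The genes are scattered over 17 chromosomes, and the difference was not confined to a few of them. Of the 77 members, 73 had a lower log2 ratio than the median of all measured genes on their own chromosome, and the median distance from it was -0.46. Chromosome 11 carries the most members, 10 genes, and all 10 lay below its median of 0.00. Chromosome 5, with 4 members, had the lowest median of all genes at -0.30, and its members had a median of -0.60. The 4 members at or above the median of their chromosome were Mrpl23 and Mrpl48 on chromosome 7 and Mrpl28 and Mrps10 on chromosome 17.

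**Figure D3:**
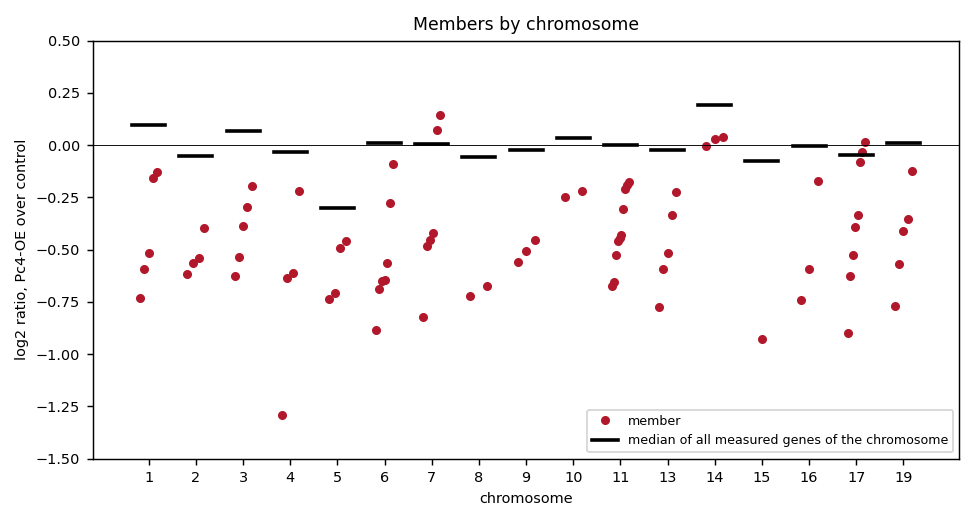
Log2 ratio of Pc4-OE over control for each member (points), by chromosome, with the median of all measured genes of the chromosome (black bar). On 15 of the 17 chromosomes every member lies below the bar, and chromosomes 7 and 17 hold the 4 exceptions.

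Many members sit head to head with another gene. For 27 of them, another listed gene starts on the opposite strand within 1000 bases upstream or at most 100 bases inside the member, and for 25 this partner was measured. In 1 pair, Mrpl48 and Rab6a, the listed start of the partner lies inside the member. Annotated exons overlap in other pairs too, among them Mrpl18 with Tcp1, Mrpl21 with Ighmbp2 and Mrpl27 with Eme1. The same holds for Mrpl43 with Twnk, Mrpl47 with Ndufb5 and Mrps7 with Gga3, so reads of such pairs may be shared. Mrpl46 and Mrps11 are each other's partner, with log2 ratios of -0.82 and -0.42. The other 23 partners include Ndufb5 and Twnk, which also belong to the mitochondrial lists below, Twnk there under the symbol Peo1. These 23 partners had a median log2 ratio of -0.30. Of these, 19 had a ratio below 1, against 50.7% of all measured genes. An interval lay wholly below 1 for 12, against 33.1%, and wholly above 1 for 3, against 31.2%. The members that these partners face had a median of -0.52, and the partner had the higher ratio in 17 of the 23 pairs. Hira, a histone chaperone facing Mrpl40, had a log2 ratio of -0.59 (interval -0.71 to -0.47). Tmem63b, facing Mrpl14, had 0.55 (0.44 to 0.67). These examples were chosen after their values were seen.

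Components of the mitochondrial ribosome that go by other symbols were measured beside the members. Their list was chosen with earlier results of these data known. All 6 had an interval wholly below 1, against 33.1% of all measured genes, with a median log2 ratio of -0.40. Ptcd3, a pentatricopeptide-repeat protein of the small subunit, had 149 CPM in the Pc4-OE library and 202 CPM in the control library (-0.44, interval -0.53 to -0.34). Ict1, a peptidyl-tRNA hydrolase built into the large subunit, had 17.7 CPM in the Pc4-OE library and 26.4 CPM in the control library (-0.58, interval -0.86 to -0.30). Aurkaip1 (-0.45) and Chchd1 (-0.33), both of the small subunit, and Gadd45gip1 (-0.36), of the large subunit, lay within the range of the members. Dap3, the GTP-binding protein of the small subunit, was nearest to equal levels (-0.13, interval -0.23 to -0.02).

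The soluble factors of mitochondrial translation were lower as well, with 1 exception. Of 13, 12 had an interval wholly below 1, against 33.1% of all measured genes, and 5 were at least 1.5-fold lower, against 13.2%. Their median log2 ratio was -0.55. Gfm2, a ribosome recycling factor, had 77.1 CPM in the Pc4-OE library and 124 CPM in the control library (-0.69, interval -0.82 to -0.56), and Gfm1, the elongation factor that moves the ribosome along, had 74.3 CPM and 110 CPM in the same order (-0.57, interval -0.70 to -0.44). Taco1, a translational activator of a cytochrome oxidase subunit, had a log2 ratio of -0.72 and Mtif3, an initiation factor, one of -0.70. The exception was Oxa1l, the insertase that receives nascent chains at the inner membrane, at 111 CPM in the Pc4-OE library and 90.9 CPM in the control library (0.29, interval 0.17 to 0.42).

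Factors that assemble the mitochondrial ribosome or express the mitochondrial genome differed in both directions. Of 35, 20 had an interval wholly below 1, against 33.1% of all measured genes, and 3 had one wholly above, against 31.2%. The intervals of the other 12 included 1, and the median log2 ratio of the list was -0.37. The 4 that were at least 2-fold lower, against 4.02% of all measured genes, all act on ribosome assembly or ribosomal RNA. Rbfa, which helps mature the small subunit, had 431 reads in the Pc4-OE library and 989 in the control library (-1.19, interval -1.36 to -1.02). Noa1, a GTPase of small-subunit assembly, had 19.8 CPM in the Pc4-OE library and 41.1 CPM in the control library (-1.05, interval -1.30 to -0.81). Of the ribosomal RNA methyltransferase genes, Ftsj2 had 51 reads in the Pc4-OE library and 124 in the control library (interval -1.77 to -0.79), and Rnmtl1 had 68 and 137 reads in the same order (interval -1.44 to -0.57). Rnmtl1 lay at the edge of the 2-fold threshold, and 3 of the 4 passed it with library totals or with a pseudocount of 0.5 CPM. Tfam, which packages mitochondrial DNA and activates its transcription, had a log2 ratio of -0.67 (-0.79 to -0.55). The 3 with higher levels were Mrm1 (0.66), another ribosomal RNA methyltransferase, Trmt2b (0.56) and Mpv17l2 (0.40). Noa1 and Ftsj2 lie on chromosome 5, so 2 of the 4 remain when chromosomes 5 and 15 are left out.

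**Figure D4:**
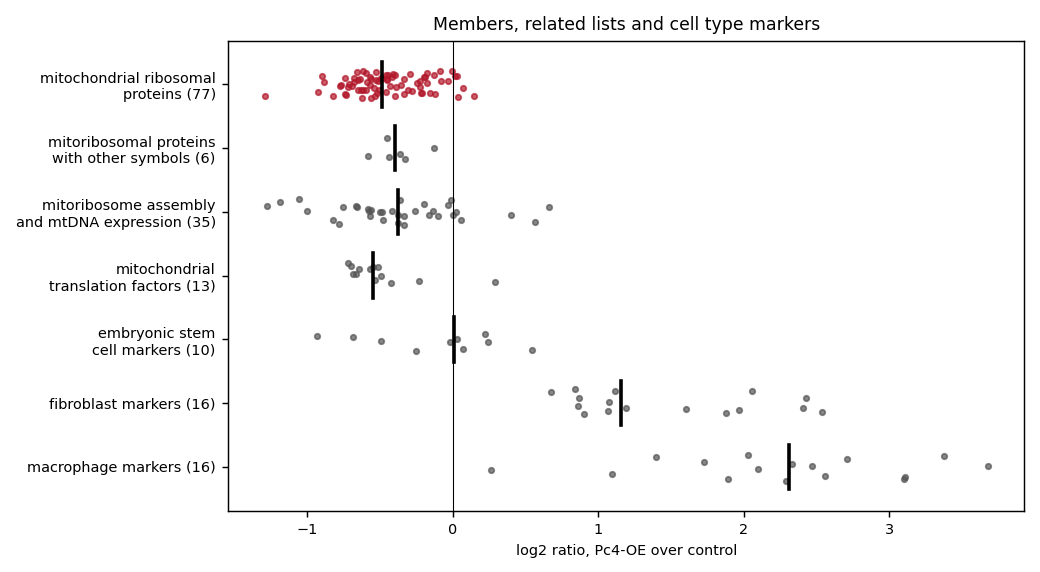
Log2 ratio of Pc4-OE over control for each gene (points, spread vertically at random) of the members, of related mitochondrial lists and of cell type markers, with the median of each list as a black bar and its number of genes in brackets. The first 4 lists have medians between -0.37 and -0.55, the stem cell markers 0.01, and all fibroblast and macrophage markers lie above 0.

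The lower levels were set beside the most closely related gene groups. These groups go by symbol pattern, and the cytosolic one also takes in Rpl10l, Rpl3l and Rpl7l1. Some of their genes were poorly counted. Rpl26 and Ndufs5 had 0 reads in both libraries, and Rps27 had 20 reads in the Pc4-OE library and 27 in the control library. The 83 measured cytosolic ribosomal proteins had a median log2 ratio of -0.19, 61.4% had an interval wholly below 1 and 12 genes had one wholly above 1. Of these 83, 5 were at least 2-fold lower, against 1 of the 77 members and 4.02% of all measured genes. They were Rpl30, Rpl21, Rpl10l, Rpl23a and Rpl3l, and Rpl30 had a lower ratio than any member. At least 1.5-fold lower were 16 cytosolic genes (19.3%), against 33.8% of the members and 13.2% of all measured genes. The 80 measured nuclear-encoded respiratory chain subunits, which assemble with the products of mitochondrial translation, also had a median of -0.19. Of their intervals, 56.3% lay wholly below 1, against 33.1% of all measured genes, and 8 wholly above. None of these subunits was at least 2-fold lower, against 4.02% of all measured genes. At least 1.5-fold lower were 5 (6.25%), a smaller share than the 13.2% of all measured genes. Of the mitochondrial ribosomal proteins, 80.5% had an interval wholly below 1 and 0 had one wholly above. These shares are not at equal precision, since more reads narrow an interval. The median level per kilobase was 77.7 CPM for the cytosolic group, 78.2 CPM for the respiratory group and 31.0 CPM for the members. In the cytosolic group, Rpl4 thus counted as wholly above 1 at a log2 ratio of 0.05. Among the respiratory subunits, Cox6b2 was higher (69.1 CPM in the Pc4-OE library and 36.1 CPM in the control library), and Cox6c (log2 ratio -0.76), Ndufb9 (-0.73) and Atp5g3 (-0.61) were lower. Cox6c and Ndufb9 lie on chromosome 15, where all measured genes had a median log2 ratio of -0.08. With 1 library per label, the difference between these groups of genes is a description and was not tested. Messenger RNAs encoded in the mitochondrial genome were not analysed here.

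**Figure D5:**
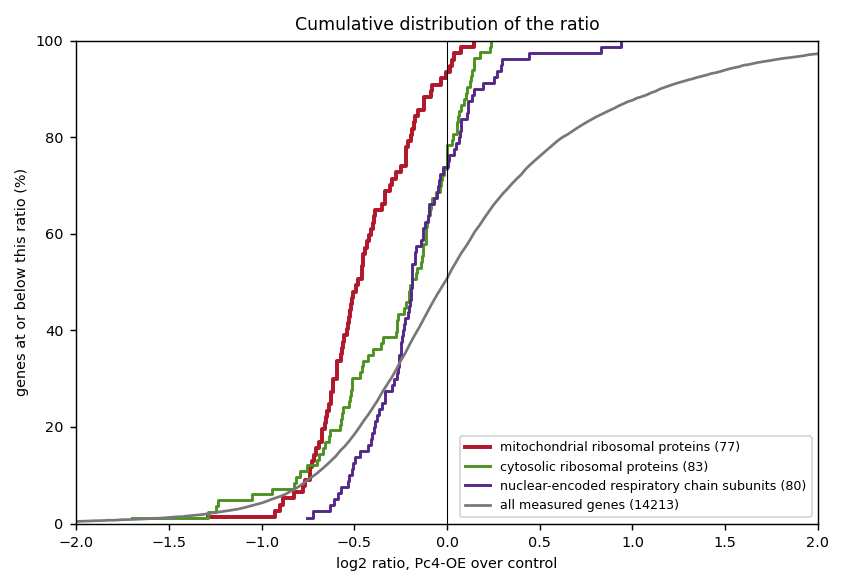
Percentage of genes at or below each log2 ratio of Pc4-OE over control, for the 77 members, the 83 cytosolic ribosomal proteins, the 80 respiratory chain subunits and all 14213 measured genes. The curve of the members reaches its middle at -0.48, that of both other groups at -0.19 and that of all genes at -0.01.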

How the data were processed

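The authors deposited raw read counts per gene for 2 poly(A) RNA libraries from a stranded kit, per the labels' protocols. The submitters' processing notes name STAR 2.4.1c, featureCounts and mm10. No source used here gives the annotation, the strand setting or how multiply mapped reads were handled, so reads of overlapping genes and of near-identical copies may be shared.

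CPM was computed from these counts on TMM effective library sizes (edgeR 4.0.16), with no pseudocount. Ratios carry exact (Clopper-Pearson) 95% intervals from scipy 1.17.1, which treat reads as independent and leave out all but counting error. A gene was called lower or higher when its ratio passed 2-fold (or 1.5-fold) and the interval excluded 1. The ratios, intervals and fold thresholds were tested on simulated counts that held counting error only, scaled by library totals. TMM scaling, the motif search and the search for partner genes were not part of that test. Positions came from RefSeq on GRCm38.p6, which matched 23977 rows (99.7%), and exon lengths from coding transcripts of the GENCODE basic set. For some members this length exceeds the RefSeq span of the gene. Respiratory chain and cytosolic ribosomal genes were taken by symbol pattern.

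Members, lists and the rule for named genes were chosen with earlier results of these data known. Named genes are those past 2-fold, the 10 lowest and 10 highest by the interval bound nearest a ratio of 1, the 5 highest and 5 lowest per kilobase, a fixed set by role (stalk, Mrps18 paralogues, Mrps30, Mrps12, Mrps36, Mrpl36), the members nearest the count minimum, up to 4 genes of each other list, and Sub1. Mrps31, Aurkaip1 and other genes outside it were named after their values were seen. Alternatives were library totals, DESeq2 1.42.0 size factors, a pseudocount of 0.5 CPM, other count minimums and leaving out chromosomes 5 and 15. Added after the data were seen were ratios relative to the chromosome, subunits by symbol, and leaving out overlapping members.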

Additional observations from a re-analysis of the deposited data

How the results depend on the processing

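The median log2 ratios of all members, of each subunit and of each origin stayed below 0 under the alternatives run. With library totals 70 members had a ratio below 1, against 72, since Mrpl28 (log2 ratio 0.01) and Mrps16 (0.04), whose intervals include 0, crossed it. The median log2 ratio of the members ran from -0.49 with DESeq2 size factors to -0.44 with library totals, and was -0.46 relative to the chromosome medians. With library totals, 19 members were at least 1.5-fold lower and 58 had an interval wholly below 1. This scaling moved all measured genes as well. The share of them with an interval wholly below 1 was 30.3%, against 33.1% in the main setting, and their median log2 ratio was 0.03, against -0.01. Without the 27 members that overlap another gene or have a named pseudogene, 17 of 50 were at least 1.5-fold lower. Of these 50, 41 had an interval wholly below 1, against 33.0% of all genes in that setting, and 47 a ratio below 1. The counts fell since fewer genes remained, and the median of the members was -0.47. Counts on other lists that changed by more than 1.5 times were small. Respiratory chain subunits at least 1.5-fold lower numbered 5, against 3 with library totals and 2 without chromosomes 5 and 15, and those 1.5-fold higher numbered 1 at a minimum of 100 reads. With DESeq2 size factors 1 ribosomal protein under another symbol was 1.5-fold lower. Without chromosomes 5 and 15, 2 assembly factors (of 4) and 3 cytosolic ribosomal proteins (of 5) were at least 2-fold lower. With library totals 2 assembly factors and 1 stem cell marker were 1.5-fold higher. No paired analysis was possible because each label has 1 library, and for the same reason none could be left out. At 42 reads, as for Mrpl23, counting error alone spans log2 ratios from -0.80 to 1.10, so members with few reads cannot be ranked.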
